A study of Rattus norvegicus with 35 samples.

Results

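Solute carriers are membrane proteins that move amino acids, sugars, ions, metals, lipids and metabolites across the cell surface and across the membranes of organelles. The genes described here are those whose symbol on the array is Slc followed by a digit, leaving out Slc2a1, Slc2a4, Slc16a1 and Slc16a3, and whose mean raw signal over all 35 arrays was 100 or more. Of 224 such genes on the array, 155 reached that level and 69 did not, out of 10411 genes named in all. Where several probe sets read a gene, the one with the highest mean over all arrays stands for it. The level over all arrays therefore chose the genes, and that level is not a result. The genes nearest the limit were Slc9a5 at a mean signal of 100.003 just inside it and Slc6a4 at 98.0 just outside. Of the 155, 140 had a mean of at least 100 in both groups. Another 13 were below 100 in normal glands and 2 were below 100 in tumours, so these 15 were kept only through the group in which they were higher. The 13 are Slc1a1, Slc5a1, Slc7a5, Slc7a12, Slc12a5, Slc17a1, Slc18a2, Slc26a1, Slc29a2, Slc35f6, Slc36a1, Slc38a5 and Slc39a4, and the 2 are Slc9a5 and Slc22a3. A difference in the direction that kept them was in part required by the rule, and their values are given as a description. One of the 155, Slc7a6os, carries the name of its neighbour Slc7a6 and is not itself a transporter.

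The series measured gene expression in 24 frozen rat mammary tumours and 11 normal rat mammary glands on single-colour oligonucleotide arrays. The tumours were induced by N-methyl-N-nitrosurea (NMU), an alkylating carcinogen that produces mammary tumours in rats. The 11 normal glands comprise 8 titled NewN, 1 titled Young, and X27.1N and X28.1N, which share a number with the tumours X27 and X28. Among the tumours, X25L and X25R share a title number, as do X29.1 and X29.2, and the labels do not say whether such tumours came from 1 animal. Values without X25R and X29.2 are given for this reason. Strain, age, treatment of the normal glands and the identity of the animals are not given in the labels, and nothing states that the samples came from separate animals, so p-values cover only the variation among these samples, and some of that may be technical.

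Transporters decide which nutrients a cell can take up and which it releases. In the mammary gland they supply amino acids, citrate, phosphate, zinc, choline and ions to the secretory epithelium, while the fat around the ducts has its own set for fatty acids and for intermediates of lipid synthesis. Several work in pairs: the light chain Slc7a5 reaches the cell surface only when bound to the heavy chain Slc3a2, and it imports large neutral amino acids in exchange for others such as glutamine. Zinc is imported into the cytosol by the Slc39 family and removed from it by the Slc30 family, and the Slc25 family carries metabolites across the inner mitochondrial membrane.

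The groups differ in tissue makeup and in the range of their signals, and both stand beside every result here. The summed signal of 9 adipocyte markers ran from 315 to 4771 in tumours and from 10654 to 29938 in normal glands, and all 9 were lower in tumours. The summed signal of 10 luminal epithelial markers ran from 1306 to 29071 in tumours, with a median of 18312, and from 4460 to 12266 in normal glands. The lowest tumour, X22L, stood apart from the other tumours in this sum. In bulk tissue, fewer cells of a type and less RNA per cell cannot be told apart, and the part of tissue makeup in the changes of single transporters was not tested. The array medians lay between 158 and 176 in tumours and between 163 and 172 in normal glands. The 10th percentile of signal averaged 43.6 ± 2.59 in tumours and 38.2 ± 2.66 in normal glands, and the 90th percentile 596 ± 46.1 in tumours and 718 ± 38.6 in normal glands (SD, n = 24 and 11). Dim probe sets were thus relatively brighter in tumours and bright ones relatively dimmer.

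Solute carriers changed in both directions in tumours. Amino acid transporters stood at both ends of the order, with Slc7a5 and Slc7a1 rising most and Slc1a5 falling most. Of the 155 genes, 62 were called higher, 34 lower and 59 did not pass the test, where a call is a Benjamini-Hochberg adjusted p under 0.05 in limma over all 15866 probe sets. Over all 10411 genes the share called was 59.0%, with 31.4% higher and 27.6% lower, so the share of solute carriers called, 61.9%, lay near that background. Of the 8200 genes at the same minimum signal 61.1% were called, 29.5% higher and 31.6% lower, and of the solute carriers 40.0% were called higher and 21.9% lower. The median log2 change, tumour minus normal, was 0.12 for the solute carriers and 0.02 for all genes. Most rises were small: 47 of the 62 were under 1.5-fold and 5 reached 2-fold, while 18 of the 34 falls were under 1.5-fold and 5 reached 2-fold. For 1 gene, Slc30a6, the dimmest tumour exceeded the brightest normal gland, and for 3 (Slc1a5, Slc7a8 and Slc25a10) the brightest tumour was below the dimmest normal gland. Over all genes 0.288% lay entirely above and 2.27% entirely below.

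**Figure D1:**
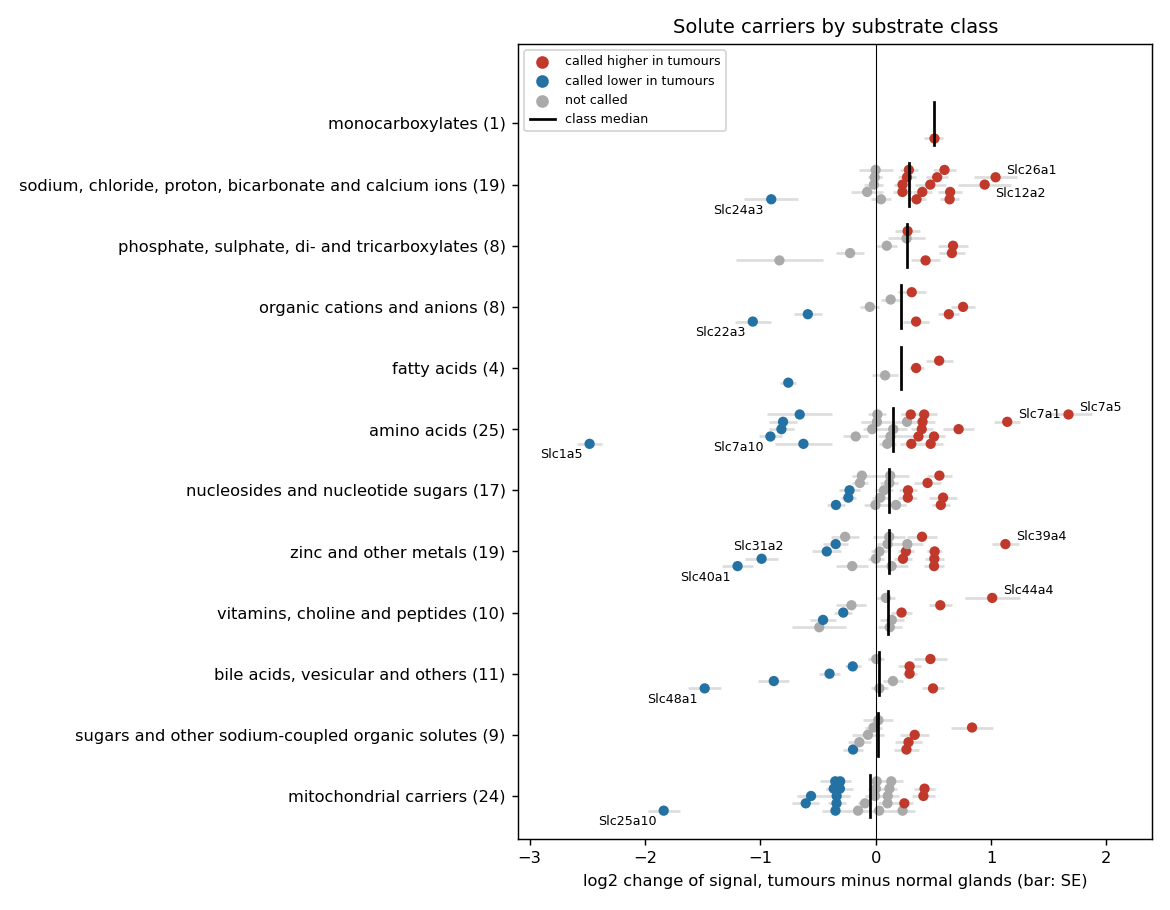
Log2 change in signal, tumours minus normal glands, of 155 solute carriers (points, with standard error) grouped by substrate class, with the number of genes in brackets and the class median as a black line. Slc7a5 at 1.67 and Slc1a5 at -2.48 mark the ends, and the mitochondrial carriers have the lowest median.

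The direction of change varied with the brightness of the probe set. Among 70 solute carriers with a mean signal of 100 to 200, 47.1% were called higher and 14.3% lower, against 40.6% and 23.2% of all genes in that range. Of 55 at 200 to 400, 20 were higher and 11 lower, against 865 and 922 of 2995 genes. Of 30 at 400 or more, 9 were higher and 13 lower, against 445 and 1033 of 2469 genes. Solute carriers followed the same shift with brightness as the rest of the array, and in each range the share called higher was larger than that of all genes, a difference that was not tested. Under quantile normalization, which gives all arrays the same range of signals, 67 were called higher and 23 lower, with 33.9% and 22.5% of all genes. With a minimum signal of 200, 29 of 85 were higher and 24 lower, with 1310 and 1955 of 5464 genes at that level. Tested with only the brighter probe sets of the array, 36 of 100 were higher and 26 lower, with 1506 and 2116 of 6019 genes. Of the 69 solute carriers below the minimum, 32 were higher and 8 lower, with 38.4% and 12.8% of all genes below it.

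**Figure D2:**
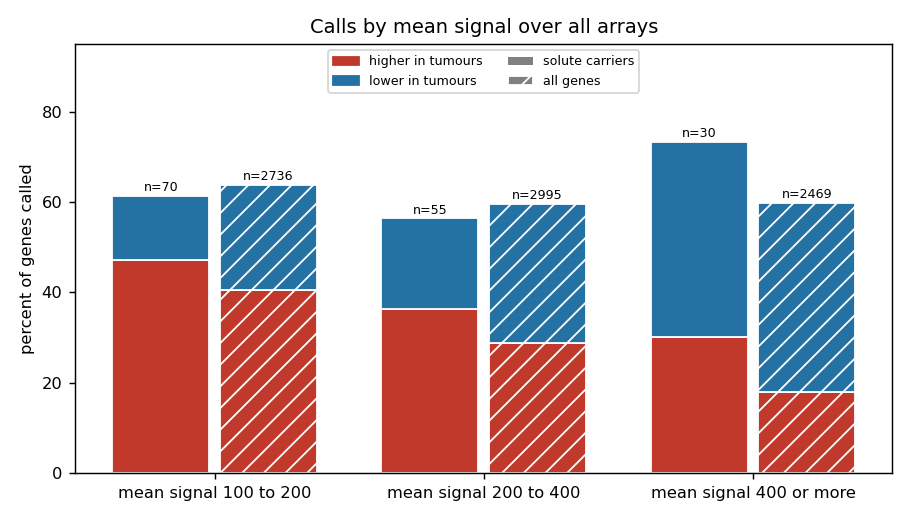
Percent of genes called higher (red) and lower (blue) in tumours, stacked, for solute carriers (plain bars) and all genes (hatched bars), in 3 ranges of mean signal over all arrays. The share called higher is largest in the dimmest range for both sets, 47.1% and 40.6%.

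The amino acid class, set by family number, holds 25 genes, among them Slc7a6os, which is not itself a transporter. Of the 25, 11 rose (44%), 6 fell (24%) and 8 did not pass, against 31.4% higher and 27.6% lower over all genes. The median log2 change was 0.15. The largest rise was that of Slc7a5 (probe set 1387280_a_at), the light chain known as LAT1. Its signal was 64.7 at the lowest (X4), 136 at the median and 375 at the highest (X17) in tumours, against 23.4, 37.5 and 68.9 in normal glands. All but 1 tumour lay above every normal gland, and 8 of the 11 normal glands were at the floor of 41.6, below which values were not told apart. The log2 change was 1.67 (SE 0.20, adjusted p = 1.85e-08, limma), and the floor limits its size. As Slc7a5 was kept through its signal in tumours, this rise is a description and not independent of how the genes were chosen. Slc7a1, the cationic amino acid transporter that imports arginine and lysine, had signals of 155, 296 and 451 in tumours (lowest, median, highest), against 106, 127 and 210 in normal glands. The 1 tumour that overlapped the normal glands was X22L. Its log2 change was 1.14 (SE 0.11, adjusted p = 1.76e-10), and it was 0.83 by a second probe set and 0.68 as the mean over its 3 probe sets.

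The heavy chain Slc3a2 (CD98) did not follow the rise of its light chain. It was read at 574, 1256 and 2079 in tumours (lowest, median, highest), against 765, 1381 and 1691 in normal glands, and the groups overlapped over almost the whole range. Its log2 change was 0.01 (SE 0.14, adjusted p = 0.976). It was 0.30 under quantile normalization (adjusted p = 0.0607), -0.18 against the NewN glands alone and 0.53 against the other 3 normal glands, none of which passed.

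The largest fall was that of Slc1a5. This gene (ASCT2, a sodium-dependent exchanger of glutamine and other neutral amino acids, probe set 1371040_at) was read at 226, 306 and 473 in tumours (lowest, median, highest), against 1086, 1719 and 3162 in normal glands. The brightest tumour, X15, was still below the dimmest normal gland, X27.1N. The log2 change was -2.48 (SE 0.11, adjusted p = 1.13e-20), and it lay between -2.53 and -2.25 under quantile normalization, against the NewN glands alone and against the 3 other glands. X15 was also the tumour with the highest sums of adipocyte, endothelial and macrophage markers. Whether tissue makeup bears on its Slc1a5 signal was not tested. Slc7a10 (Asc-1, which carries alanine, serine and cysteine) fell by 0.91 (SE 0.10, adjusted p = 1.08e-09) with tumours at 240 to 447 and normal glands at 424 to 868. Slc7a8 (LAT2, which like Slc7a5 is a light chain of Slc3a2) fell by 0.82 (SE 0.10, adjusted p = 4.87e-08). Its tumours ranged from 71.9 to 140.5 and its normal glands from 140.7 to 257, so the groups met without overlapping.

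To show the regions upstream of the light chain that rose most, of its heavy chain and of the cationic transporter, the 300 bases around the annotated start of each are given from RefSeq (GRCr8), from 250 before to 50 after, 5′ to 3′ on the gene's strand. Capitals mark the E-box CACGTG, a site bound by basic helix-loop-helix factors, and the GC box GGGCGG on either strand (CCGCCC). The promoter table holds no entry for Slc1a5.
Slc7a5 promoter (chr19:66872363-66872662, minus strand): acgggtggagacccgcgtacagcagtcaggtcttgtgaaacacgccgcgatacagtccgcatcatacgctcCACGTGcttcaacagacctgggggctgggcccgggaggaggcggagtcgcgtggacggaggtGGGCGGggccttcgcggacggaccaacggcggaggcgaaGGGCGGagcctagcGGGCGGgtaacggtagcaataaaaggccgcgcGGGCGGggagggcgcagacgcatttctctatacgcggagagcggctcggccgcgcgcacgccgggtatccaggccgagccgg
Slc7a1 promoter (chr12:11664238-11664537, plus strand): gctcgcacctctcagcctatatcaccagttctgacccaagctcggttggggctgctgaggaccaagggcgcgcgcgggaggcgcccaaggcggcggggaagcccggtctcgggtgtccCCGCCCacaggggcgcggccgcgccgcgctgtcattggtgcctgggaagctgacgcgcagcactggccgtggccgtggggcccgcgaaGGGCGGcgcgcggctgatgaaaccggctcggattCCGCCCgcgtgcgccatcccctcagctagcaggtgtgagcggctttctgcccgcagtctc
Slc3a2 promoter (chr1:215048015-215048314, minus strand): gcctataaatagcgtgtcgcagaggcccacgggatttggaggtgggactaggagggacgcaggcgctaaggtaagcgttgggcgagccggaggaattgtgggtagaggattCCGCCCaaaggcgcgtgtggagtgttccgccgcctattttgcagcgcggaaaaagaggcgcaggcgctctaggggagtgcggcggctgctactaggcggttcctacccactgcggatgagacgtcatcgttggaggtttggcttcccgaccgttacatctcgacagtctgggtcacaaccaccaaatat
The Slc7a5 window holds 1 E-box and 4 GC boxes, that of Slc7a1 holds 0 and 3, and that of Slc3a2 holds 0 and 1. Promoters were found for 132 of the 155 genes: 14 (10.6%) hold the E-box and 82 (62.1%) the GC box, against 6.65% and 34.9% of 27457 promoters of the same length. The 27457 were not limited to genes on the array or to a minimum signal, as the 132 were. The sets are thus unlike, and the difference between them was not tested. The core of the amino acid response element, TTGCATCA, was in 1 of the 132 and in 0.743% of all promoters, and in none of these 3. These matches are descriptions of the letters only.

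Smaller rises were spread over the other amino acid families. Slc36a1 (a proton-coupled transporter of lysosomes and the cell surface) rose by 0.72 (SE 0.13) and Slc6a9 (the glycine transporter GLYT1) by 0.48 (SE 0.11). The call of Slc6a9 was lost against X27.1N, X28.1N and Young alone, where the change was 0.11, as was that of Slc36a1, at 0.29. As Slc36a1 was kept through its signal in tumours, its rise was in part required by the rule. Among examples picked once their values were known, Slc38a1 (a sodium-coupled glutamine transporter) rose by 0.51, with a second probe set at 0.02 (adjusted p = 0.957), and Slc7a7 (a light chain that exports arginine) fell by 0.63. Slc38a2, another glutamine transporter, changed by -0.17 (adjusted p = 0.18), and Slc38a10 fell by 0.80 (SE 0.12, adjusted p = 1.05e-06). Slc6a6, the taurine transporter, fell by 0.66 (SE 0.28, adjusted p = 0.045), but tumour X2 was read at 7692, above all other samples, against a tumour median of 1000 and 927 to 2284 in normal glands. That call was lost under quantile normalization, where the change was -0.39, without X22L, where it was -0.61 (adjusted p = 0.0594), and against X27.1N, X28.1N and Young alone, where it was -0.35 (adjusted p = 0.724).

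**Figure D3:**
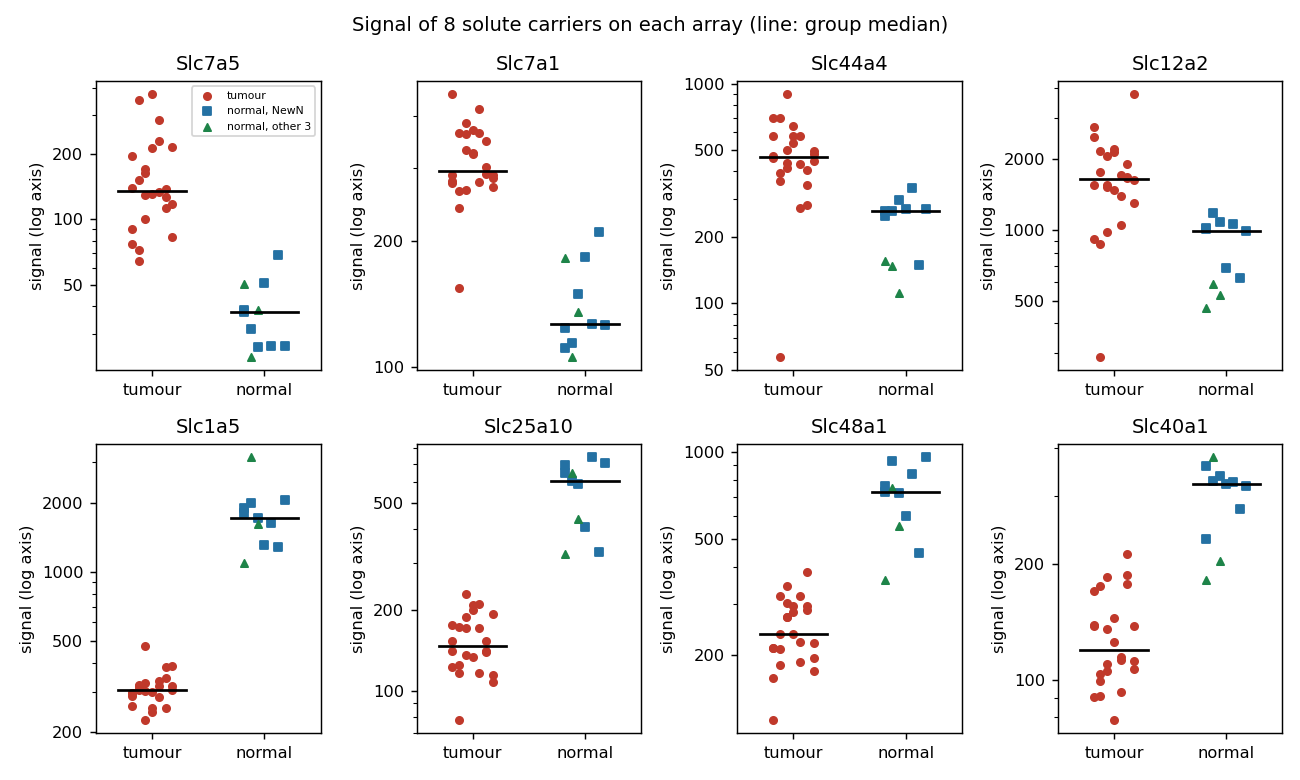
Signal of 8 solute carriers on each array (log axis), with tumours (red circles) left of the normal glands (blue squares for NewN, green triangles for X27.1N, X28.1N and Young) and lines at the group medians. Slc1a5 and Slc25a10 do not overlap between the groups, and the single low tumour in the panels of Slc7a1, Slc44a4 and Slc12a2 is X22L.

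Relations between 5 pairs of transporters that form one complex or act in one route were measured across the 24 tumours on the log2 scale, with two-sided permutation tests and p-values adjusted over the 5. Slc3a2 and Slc7a5 were related, tumours high in one being high in the other (Pearson r = 0.60, permutation p = 0.00173, adjusted p = 0.00432; Spearman rho = 0.59, permutation p = 0.00298, adjusted p = 0.00745). Without X22L and X27, the tumours farthest from the median of Slc3a2, r was 0.57 over 22 tumours (permutation p = 0.00626), and without X25R and X29.2, which share title numbers with other tumours, it was 0.62. Slc1a5 and Slc7a5 showed no such relation (r = -0.09, permutation p = 0.677, adjusted p = 0.846; rho = -0.07, permutation p = 0.753, adjusted p = 0.753; r = -0.13 without X15 and X32). No batch is named in the labels, so no value within batches can be given.

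**Figure D4:**
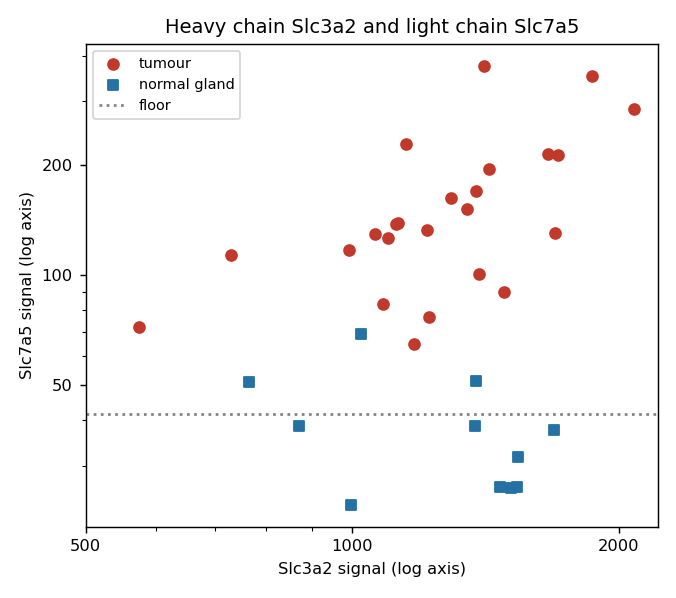
Signal of the light chain Slc7a5 against that of the heavy chain Slc3a2 on each array (log axes), for tumours (red circles) and normal glands (blue squares), with the floor of 41.6 as a dotted line. Among tumours r was 0.60, and the normal glands lie lower on the Slc7a5 axis at similar levels of Slc3a2.

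Mitochondrial carriers were the class with the lowest median, -0.05, and the deposited scale and quantile normalization gave different balances. On the deposited scale, of 24, 3 rose (12.5%), 10 fell (41.7%) and 11 did not pass, against 31.4% higher and 27.6% lower over all genes. Under quantile normalization 7 rose and 4 fell, against 33.9% and 22.5% of all genes, and the median was -0.03. The largest fall under both was that of Slc25a10, the dicarboxylate carrier, which exchanges malate or succinate for phosphate and is abundant in white fat. Its signal was 78.1, 147 and 230 in tumours (lowest, median, highest), against 323, 601 and 742 in normal glands, with no overlap. The log2 change was -1.84 (SE 0.14, adjusted p = 1.94e-13) and -1.72 under quantile normalization. Slc25a1, the citrate carrier that supplies cytosolic acetyl-CoA for lipid synthesis, fell by 0.56 (SE 0.12, adjusted p = 0.000156), with tumours at 388 to 960 and normal glands at 575 to 1184. It fell by 0.28 under quantile normalization (adjusted p = 0.0269) and changed by -0.13 against X27.1N, X28.1N and Young alone (adjusted p = 0.712).

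The abundant carriers of oxidative phosphorylation fell slightly. Slc25a3, which imports phosphate for ATP synthesis, fell by 0.36 (SE 0.07, adjusted p = 1.71e-05), with tumours at 1376 to 2510 and normal glands at 2168 to 2903. The ADP/ATP carriers Slc25a4 and Slc25a5 fell by 0.34 (SE 0.11, adjusted p = 0.0111) and 0.31 (SE 0.09, adjusted p = 0.00357). All 3 calls were lost under quantile normalization, at -0.12, -0.07 and -0.07, and against X27.1N, X28.1N and Young alone, at -0.17, -0.17 and -0.29. Slc25a20, which carries acylcarnitines into the matrix for oxidation, changed by -0.01 (SE 0.08, adjusted p = 0.983).

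Across tumours, Slc25a3 and Slc25a5 were related (r = 0.68, permutation p = 0.00038, adjusted p = 0.0019; rho = 0.60, permutation p = 0.00208, adjusted p = 0.00745). Without X4 and X26, the tumours farthest from the median of Slc25a3, r was 0.40 (permutation p = 0.0603), so the size of r depended on those tumours. Slc25a4 and Slc25a5 gave r = 0.16 (permutation p = 0.449, adjusted p = 0.748; rho = 0.37, permutation p = 0.0763, adjusted p = 0.127). Without X2 and X4, r was 0.49 (permutation p = 0.0227). X2 held both the lowest Slc25a4, 668, and the highest Slc25a5, 2628. Slc27a1 and Slc25a20 gave r = 0.01 (permutation p = 0.955, adjusted p = 0.955; rho = -0.13, permutation p = 0.538, adjusted p = 0.672), and -0.01 without X8 and X21.

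Of 19 metal transporters, 7 rose (36.8%), 4 fell (21.1%) and 8 did not pass, with a median of 0.12, shares near those of all genes, 31.4% and 27.6%. Slc39a4, which imports zinc across the cell surface, was read at 92.0, 133 and 199 in tumours (lowest, median, highest), against 38.0, 59.8 and 98.8 in normal glands. It rose by 1.12 (SE 0.12, adjusted p = 9.68e-10), with 21 tumours above every normal gland, as 1 of the 13 genes kept through their signal in tumours, and by 0.66 against X27.1N, X28.1N and Young alone (adjusted p = 0.0123). Slc30a6, a zinc transporter of the Golgi named because it was the 1 gene with all tumours above all normal glands, was read at 258 to 396 in tumours and 192 to 252 in normal glands, a rise of 0.51 (SE 0.07). Slc39a1, a widely expressed zinc importer, rose by 0.24 (SE 0.08, adjusted p = 0.0101), but changed by -0.0058 against X27.1N, X28.1N and Young alone (adjusted p = 1) and by 0.51 under quantile normalization. Of the Slc39 genes 4 of 7 rose and 2 fell, and of the Slc30 genes 2 of 6 rose and 0 fell.

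Transporters of iron and copper held the largest falls among the metals. Slc40a1 (ferroportin, probe set 1387130_at, the iron exporter of macrophages and other cells) was read at 78.8, 120 and 212 in tumours (lowest, median, highest), against 182, 323 and 380 in normal glands. It fell by 1.20 (SE 0.13, adjusted p = 2.68e-09), and by 1.29 in a second probe set. The iron importer Slc11a2 and the copper importer Slc31a1 did not pass, at 0.03 and 0.10, while a second probe set of Slc11a2 was called lower (-0.25, adjusted p = 0.0163). Slc31a2, a copper transporter of endosomes and lysosomes, fell by 0.99 (SE 0.14), with tumours at 106 to 310 and normal glands at 211 to 571. Among the 11 genes of the mixed class of bile acid, vesicular and other transporters, 4 rose and 4 fell (36.4% each). Over all genes 31.4% were higher and 27.6% lower. Slc48a1 of this class, which moves haem out of lysosomes and endosomes, was read at 120, 236 and 384 in tumours, against 361, 728 and 959 in normal glands, a fall of 1.48 (SE 0.14, adjusted p = 7.64e-11). For Slc48a1, 23 tumours lay below every normal gland. Slc49a4, of the lysosomal membrane, fell by 0.88 (SE 0.13), and its call was lost against X27.1N, X28.1N and Young alone (-0.59, adjusted p = 0.0697). Macrophages are a cell type rich in iron transporters. The summed signal of 5 macrophage markers ran from 1442 to 4086 in tumours and from 2959 to 6079 in normal glands. Of these 5, 4 were lower in tumours, while Cd14, a bright member of the sum, did not pass (-0.15, adjusted p = 0.699). Csf1r did not overlap between the groups, at 212 to 732 in tumours and 858 to 1107 in normal glands. The part of macrophages in the changes of Slc40a1 and the other metal transporters was not tested.

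Transporters of sodium, chloride, protons, bicarbonate and calcium were mostly higher. Of 19, 13 rose (68.4%), 1 fell (5.26%) and 5 did not pass, against 31.4% higher and 27.6% lower over all genes, and the median log2 change was 0.29. The counts were also 13 and 1 under quantile normalization, with 33.9% and 22.5% of all genes. Against X27.1N, X28.1N and Young alone they were 3 and 0, with 6.87% and 11.1% of all genes. Dim genes rose more often over the whole array. At a mean signal of 100 to 200, the range of Slc12a5 and Slc26a1, 40.6% of all genes were higher and 23.2% lower. Both of these transporters were kept through their signal in tumours. Slc12a2 (NKCC1, the sodium-potassium-chloride cotransporter of secretory epithelia) was read at 288, 1638 and 3772 in tumours (lowest, median, highest), against 467, 989 and 1181 in normal glands. It rose by 0.95 (SE 0.23, adjusted p = 0.00067) and, without X22L, the tumour at 288, by 1.05 (adjusted p = 5.19e-06). Slc26a1, a sulphate and anion exchanger, rose by 1.04 (SE 0.19, adjusted p = 1.74e-05), with X22L below every normal gland and 20 tumours above them all, and its call was lost against X27.1N, X28.1N and Young alone (0.91, adjusted p = 0.0571). Slc12a5, a potassium-chloride cotransporter best known from neurons, rose by 0.65 (SE 0.11). It was read at 106 to 213 in tumours and 66.3 to 121 in normal glands, and against X27.1N, X28.1N and Young alone its call was lost (0.37, adjusted p = 0.162). The gene that fell was Slc24a3, a potassium-dependent sodium-calcium exchanger, by 0.91 (SE 0.23, adjusted p = 0.00116), a call lost against X27.1N, X28.1N and Young alone (-0.36, adjusted p = 0.592), and a second probe set changed by -0.08 (adjusted p = 0.518).

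Transporters of choline, vitamins and lipids held a few clear changes. Slc44a4, a choline transporter-like protein of epithelia, was read at 57.0, 464 and 895 in tumours (lowest, median, highest), against 112, 263 and 337 in normal glands. It rose by 1.01 (SE 0.24, adjusted p = 0.000519), with 21 tumours above every normal gland and X22L below them all, and by 1.14 without X22L. Slc44a1, a more widely expressed choline transporter, rose by 0.22 (SE 0.09, adjusted p = 0.0299), a call lost against the NewN glands alone (0.11). Over all 10 vitamin, choline and peptide transporters, 3 rose (30%) and 2 fell (20%). Of 4 fatty acid transport proteins, 2 rose and 1 fell. Over all genes 31.4% were higher and 27.6% lower. Slc27a1 (FATP1, of fat and muscle) was read at 356, 439 and 570 in tumours, against 512, 787 and 863 in normal glands, a fall of 0.76 (SE 0.07, adjusted p = 3.06e-11) with 23 tumours below every normal gland. Slc27a4 (FATP4, of epithelia) rose by 0.35 (SE 0.07, adjusted p = 2.17e-05), a call lost against X27.1N, X28.1N and Young alone (0.24).

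Of 17 nucleoside and nucleotide sugar transporters, 6 rose (35.3%), 3 fell (17.6%) and 8 did not pass, against 31.4% higher and 27.6% lower over all genes. Of the 5 nucleoside transporters 3 rose and 0 fell. Among the rises was Slc29a2, kept through its signal in tumours, whose second probe set changed by 0.18 (adjusted p = 0.262). The second probe set of Slc29a3, a gene that did not pass, fell by 0.84 (adjusted p = 0.000294). Slc28a1, which concentrates nucleosides with sodium, rose by 0.58 (SE 0.12), with tumours at 192 to 487 and normal glands at 141 to 309, and changed by 0.16 against X27.1N, X28.1N and Young alone (adjusted p = 0.64). Slc29a1 (ENT1, an equilibrative transporter) changed by 0.13 (SE 0.17, adjusted p = 0.54). Of 12 Slc35 genes 3 rose and 3 fell, among them Slc35b2, which brings the sulphate donor PAPS into the Golgi, with a rise of 0.45 (SE 0.11).

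Organic ion, phosphate and sugar transporters complete the classes, and their counts are to be read against 31.4% higher and 27.6% lower over all genes. Of 8 organic cation and anion transporters, 4 rose and 2 fell. Slc22a3 (OCT3, a transporter of monoamines) was read at 41.3, 98.6 and 172 in tumours (lowest, median, highest), against 114, 193 and 310 in normal glands, a fall of 1.07 (SE 0.16, adjusted p = 6.13e-07). Slc22a24 rose by 0.76 (SE 0.11) and Slc22a17 by 0.63 (SE 0.09), the call of Slc22a24 being lost against X27.1N, X28.1N and Young alone (0.32). Of 8 phosphate and carboxylate transporters 4 rose and 0 fell, with Slc17a1 at 0.67 (SE 0.13) and Slc17a6, a vesicular glutamate transporter of neurons, at 0.66 (SE 0.11). Both calls were lost against X27.1N, X28.1N and Young alone, at 0.52 and 0.30. The phosphate importer Slc20a1 changed by 0.27 (SE 0.16, adjusted p = 0.155), and passed under quantile normalization (0.42, adjusted p = 0.0255). Of 9 sugar and sodium-coupled transporters 4 rose and 1 fell, the largest rise being that of Slc5a1 (SGLT1, sodium-glucose cotransport), at 0.84 (SE 0.19, adjusted p = 0.000253). Its normal glands ran from 1 (X28.1N) to 203 (X27.1N), and its call was lost against X27.1N, X28.1N and Young alone (0.41). Slc16a8, the 1 monocarboxylate transporter, rose by 0.50 (SE 0.08). In this paragraph Slc22a3, Slc17a1 and Slc5a1 were kept only through the group in which they were higher. The direction of their changes was in part required by the rule, and their values are a description.

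Spread among tumours differed widely between genes. The median SD of log2 signal was 0.27 among tumours and 0.26 among normal glands, and 86 of 155 genes (55.5%) varied more among tumours, against 62.3% of all 8200 genes at the same minimum signal. The widest was Slc34a2 (NaPi-IIb, the phosphate importer of milk-secreting epithelium), with an SD of 1.18 among tumours and 0.83 among normal glands. Its tumours ran from 1 (X26) through a median of 105 to 741 (X15), with 5 at or below the floor, and its normal glands from 55.6 (Young) to 405 (NewN3). Its log2 change was -0.83 (SE 0.38, adjusted p = 0.0565), and it passed against the NewN glands alone (-1.17, adjusted p = 0.0158), without Young (-1.01, adjusted p = 0.0219) and without X25R and X29.2 (-0.92, adjusted p = 0.0335). Against X27.1N, X28.1N and Young alone the direction turned, at 0.06 (adjusted p = 0.985).

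Single tumours stood far from the others for some genes. In these examples, named once their values were known, X2 had the highest Slc6a6 (7692, with the next at 2080), Slc14a1, a urea transporter (974, with the next at 395), and Slc45a3 (936, with the next at 499). X22L had the highest Slc46a1, the proton-coupled folate transporter (1452, with the next at 910), and the highest Slc50a1, a sugar transporter (684, with the next at 439). X15 had the highest Slc29a1 (748, with the next at 600). Of the 155 genes, 31 had their lowest tumour value in X22L, 15 in X4 and 12 each in X9 and X32, while 27 had their highest in X28, 19 in X4 and 17 in X22L. The same counts over all genes were not taken, so these are not read as a trait of solute carriers. Whole arrays differed too. Among tumours X22L had the lowest array median, 158, and X28 the highest, 176. X4 had the lowest 90th percentile, 491, with a 10th percentile of 47.9. The part of these array differences in the counts was not tested. Without X22L, 63 genes were called higher and 36 lower, with 32.4% and 28.3% of all genes.

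**Figure D5:**
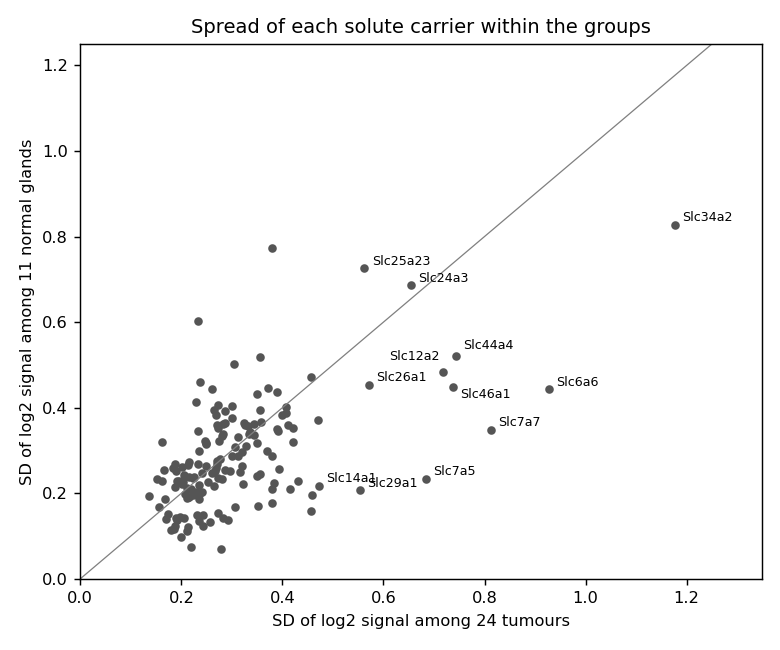
SD of log2 signal among 24 tumours (horizontal axis) and among 11 normal glands (vertical axis) for each of 155 solute carriers, with a line of equal spread and the 12 most variable genes in tumours named. Slc34a2 lies farthest out at 1.18 and 0.83, and Slc29a1 lies far below the line; the small normal spread of Slc7a5 is set by the floor, where 8 of its 11 normal glands lie.

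Calls differed with the normal glands used. Fitted with the title number as a block, 65 genes were higher and 35 lower, with 3357 and 2922 of all 10411 genes. Against the 8 NewN glands, 64 genes were called higher and 33 lower, with 31.4% and 28.9% of all genes. Against X27.1N, X28.1N and Young alone, 16 were higher and 14 lower, with 6.87% and 11.1% of all genes, and this fit rests on 3 glands. Both fits share the tumours with the fit on all 11 glands, so they are no independent repeat of it. The genes named above that were called both with all 11 glands and with these 3 were Slc7a5, Slc7a1, Slc1a1, Slc29a2, Slc39a4, Slc30a6, Slc12a2, Slc44a1, Slc44a4, Slc22a17 and Slc16a8 among rises and Slc1a5, Slc7a8, Slc7a10, Slc38a10, Slc25a10, Slc27a1, Slc22a3, Slc31a2, Slc40a1 and Slc48a1 among falls. Of these, Slc1a1, Slc7a5, Slc29a2, Slc39a4 and Slc22a3 were kept only through the group in which they were higher. Their direction was in part required by the rule.

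Different probe sets of a gene did not always give the same answer. Of 28 solute carriers with more than 1 probe set, 17 were called, and the second brightest probe set of 10 of these was called in the same direction and of 0 in the opposite one. Of the other 11, 7 had a second probe set that was called, 5 lower and 2 higher. These counts are to be read against 59.0% of all genes called, each by its brightest probe set. The widest gap was in Slc1a3, a glutamate transporter (GLAST), named after its values were seen. Its brightest probe set changed by 0.01 (SE 0.08, adjusted p = 0.903), whereas the second was at 40.0 ± 30.5 in tumours and 461 ± 175 in normal glands (SD, n = 24 and 11), a log2 change of -3.14 (SE 0.16, adjusted p = 8.1e-19) with all 24 tumours below every normal gland and 12 tumours at the floor. Second probe sets of Slc29a3 and Slc6a8 fell by 0.84 and 0.58, where the brightest changed by 0.18 and -0.03. The values of these 3 genes are therefore uncertain as to the transcript read.

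The pumps that set up the gradients used by many solute carriers were also measured. Of 10 sodium pump and proton pump subunits on the array, 2 rose, 4 fell and 4 did not pass (median -0.07). Over all genes 31.4% were higher and 27.6% lower. Atp1b3, a beta subunit of the sodium pump, fell to 859 ± 208 in tumours, against 1230 ± 199 in normal glands (log2 change -0.54, SE 0.12). Atp6v0d1 and Atp6v0a1, of the membrane sector of the proton pump, fell by 0.61 (SE 0.08) and 0.93 (SE 0.14), while Atp6v1a and Atp6v1e1, of its catalytic sector, rose by 0.25 (SE 0.07) and 0.21 (SE 0.08). Atp6v0c of the membrane sector and Atp6v1b2 of the catalytic sector did not pass, at -0.13 and 0.19.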

How the data were processed

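The deposited table holds a linear signal intensity for 15923 probe sets on 35 arrays, with array medians that lie close together as deposited. What software, background correction and scaling they used is not given in the sources used here.

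As deposited, the lowest intensity was 1, which was taken by 3601 values of the 15866 probe sets tested. The 57 control probe sets were left out.

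Values under the 10th percentile (41.6) were set to it and log2 taken. Symbols came from the platform annotation: 12783 probe sets carry 1 symbol, 312 several and 2771 none in the table used. The symbols of all 155 solute carriers equalled those of RefSeq GRCr8. The change, tumour minus normal gland, was fitted by limma 3.58.1 in R 4.3.3 (trend and robust eBayes) over all 35 arrays and 15866 probe sets, with Benjamini-Hochberg adjustment. The number of arrays limits the precision.

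On simulated arrays of 15866 probe sets for this comparison, 52% of 1.25-fold, 84% of 1.5-fold, 92% of 2-fold and 100% of 4-fold changes were recovered, 50 being simulated at each size. All other probe sets were left unchanged, whereas 59.0% of genes were called in the data. The changed probe sets lay well above the floor and had the same spread in both groups. These rates therefore need not hold for the data or for dim genes. Correlations were tested with 100000 permutations. Substrate classes follow family numbers.

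The genes, lists and tests were chosen with earlier results of these data known. The text names the 12 called genes that rose most and the 12 that fell most, in each class the called gene with the largest change and the brightest gene, the 6 brightest of all 155, and a fixed panel, of which Slc30a1 lay below the minimum signal and Slc11a1 was not analysed here. Others are said to be examples. Alternatives covered the scaling, floor, dim probe sets, spread model, a block by title number, the glands and tumours used, the probe sets and the minimum signal. Figures were drawn with matplotlib 3.10.9.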

Additional observations from a re-analysis of the deposited data

How the results depend on the processing

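The counts of solute carriers called, 62 higher and 34 lower, stayed within 1.5 times under every alternative tried except these. With only the brighter probe sets, 100 genes were tested and 36 were higher, and with a minimum mean signal of 200, 85 were tested and 29 were higher, so fewer genes entered. Against X27.1N, X28.1N and Young alone, 16 were higher and 14 lower, a fit with fewer glands, and the cause was not tested further. Slc39a1 was the 1 named gene whose called change reversed, to -0.0058 against those 3 glands. Of 44 named genes, 18 others lost their call against those 3 glands, as did Slc39a1, and 4 lost it under quantile normalization, where 1 gained one. The tumours and glands that share a title number (X27 with X27.1N, X28 with X28.1N) were also fitted as a replicate block (a random block by title number), and 65 were higher and 35 lower. It changed 1 named call, that of Slc34a2 (-0.84, adjusted p = 0.0484). Of the 5 relations, the 2 that passed did so in the same direction under the 6 alternatives of scaling, floor and tumours with shared numbers or X22L, but without X4 and X26 that of Slc25a3 with Slc25a5 was r = 0.40 (permutation p = 0.0603). The other 3 passed under none of the 6, while without X2 and X4 Slc25a4 with Slc25a5 gave r = 0.49 (permutation p = 0.0227, unadjusted). That relation gave r = -0.15 and Slc27a1 with Slc25a20 gave r = -0.26 under quantile normalization. Changes near the floor are understated.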

Other observations

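Of the 69 solute carriers below the minimum signal, 32 were called higher in tumours, 8 lower and 29 did not pass, where 38.4% and 12.8% of all genes below that signal were higher and lower. Slc16a7 (MCT2, a transporter of lactate and pyruvate) was at 15.9 to 59.1 in tumours and 69.4 to 178 in normal glands, a log2 change of -1.12 (SE 0.08, adjusted p = 1.39e-13), with all 24 tumours below every normal gland. Slc28a2, a nucleoside transporter, fell by 1.66 (SE 0.19) and Slc39a8, a zinc importer, by 1.39 (SE 0.17). Slc34a1, a phosphate importer best known from the kidney, rose by 0.77 (SE 0.10) and stayed dim, at 84.4 ± 19.1 in tumours and 46.6 ± 9.58 in normal glands (SD, n = 24 and 11). With 17 tumours at the floor for Slc16a7, 19 for Slc28a2 and 11 for Slc39a8, those falls are understated. For Slc28a2, tumour X22L at 261 lay above every normal gland, the highest of which was at 195.

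Over all genes 31.4% were higher and 27.6% lower, and the counts in other transport families are to be read against that. Of 8 aquaporins, 2 rose, 2 fell and 4 did not pass. Aqp7, the glycerol channel of adipocytes, was at 67.0 ± 17.2 in tumours and 1026 ± 355 in normal glands, a log2 change of -3.89 (SE 0.15), and Aqp1, a water channel of vessels, fell by 2.36 (SE 0.26). Of 19 ABC transporters 9 rose and 3 fell. Abcd2, a peroxisomal fatty acid transporter, fell by 2.90 (SE 0.14) with 22 tumours at the floor, and Abcb6, a porphyrin transporter, rose by 1.45 (SE 0.13), with all 24 tumours above every normal gland. Of 8 Slco organic anion transporters 4 rose and 2 fell, with Slco2a1, a prostaglandin transporter, up by 1.30 (SE 0.23) and Slco3a1 down (-2.09, SE 0.24). These genes were chosen after their values were seen.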
